A study of Mus musculus with 28 samples.

Results

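The 39 genes described here repair DNA by homologous recombination or belong to the Fanconi anemia pathway, and all 39 were found by symbol among the 25251 genes measured. RNA was sequenced from 3 bone marrow populations of C57 BL6 mice aged 8–10 wk that were either Flt3+/+ or homozygous for the Flt3-ITD knock-in (Flt3 ITD/ITD), in which the mutant receptor tyrosine kinase is expressed from its own locus. Endothelial cells (ECs) were sorted as CD45-Ter119-CD31+ and mesenchymal stromal cells (MSCs) as CD45-Ter119-CD31-CD166-Sca1+ from collagenase-digested bone, and mononuclear cells (MNCs) came from the marrow. A library held 100 ECs, 100 MSCs or 200 MNCs of 1 mouse. Each genotype had 5 mice in the EC and MSC groups and 4 in the MNC group. Population therefore cannot be told apart from cell number and from digestion. The comparisons ask how the level of each gene differed between stromal and blood-forming cells, and whether it differed with Flt3-ITD.

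Homologous recombination rejoins a broken chromosome by copying the sister chromatid, and is used mainly in cells that are replicating or have replicated their DNA. Kinases sense the break, nucleases trim its ends to single strands, replication protein A (RPA) coats the strands, and BRCA2 with its partners, the mediators, then helps to replace RPA so that the strands can pair with the sister chromatid. The Fanconi core complex attaches ubiquitin to FANCD2 and FANCI at crosslinks between DNA strands, a lesion to which blood stem cells are especially sensitive, and junction nucleases cut the branched intermediates.

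Promoter windows were available for 31 members in the RefSeq table (build GRCm38.p6). The 250 bases before the start site are shown for the 2 members with the largest MNC–EC difference among those with a window, Rad51c and Fanca, and for the 2 with the smallest, Rad52 and Atm, so that promoters of genes at both ends of the result can be compared. They lie at chr11:87404507-87404756 on the minus strand (the first of 2 start sites listed, the second being at chr11:87404955-87405204), chr8:123318577-123318826 on the minus strand, chr6:119902448-119902697 on the plus strand and chr9:53536672-53536921 on the minus strand. Capitals mark CCAAT boxes read on either strand (CCAAT or ATTGG) and, at the second start site of Rad51c, the part of the E2F-type motifs that lies before the start. The E2F-type motifs searched were TTTCCCGC, TTTGGCGC and TTCCCGCC, and the cell cycle motif was TTTGAA.
Rad51c: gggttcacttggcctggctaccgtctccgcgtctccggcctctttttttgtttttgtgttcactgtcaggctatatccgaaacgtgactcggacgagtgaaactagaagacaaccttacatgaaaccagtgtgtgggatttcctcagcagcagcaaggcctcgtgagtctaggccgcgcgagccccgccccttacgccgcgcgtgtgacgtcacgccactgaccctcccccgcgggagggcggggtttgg
Rad51c, second start site: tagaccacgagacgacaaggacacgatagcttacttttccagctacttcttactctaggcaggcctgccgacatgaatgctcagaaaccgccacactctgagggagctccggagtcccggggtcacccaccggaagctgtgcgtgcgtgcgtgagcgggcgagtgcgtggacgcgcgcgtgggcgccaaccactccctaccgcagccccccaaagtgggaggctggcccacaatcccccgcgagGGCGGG
Fanca: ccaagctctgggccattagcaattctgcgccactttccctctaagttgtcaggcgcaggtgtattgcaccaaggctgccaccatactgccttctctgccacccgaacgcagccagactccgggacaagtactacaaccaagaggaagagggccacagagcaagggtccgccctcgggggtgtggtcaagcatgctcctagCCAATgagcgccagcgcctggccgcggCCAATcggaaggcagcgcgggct
Rad52: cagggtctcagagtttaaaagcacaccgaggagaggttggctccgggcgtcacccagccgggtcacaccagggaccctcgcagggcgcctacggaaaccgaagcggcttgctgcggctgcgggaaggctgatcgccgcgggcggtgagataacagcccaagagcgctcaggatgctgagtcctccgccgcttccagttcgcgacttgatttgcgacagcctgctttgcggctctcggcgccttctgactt
Atm: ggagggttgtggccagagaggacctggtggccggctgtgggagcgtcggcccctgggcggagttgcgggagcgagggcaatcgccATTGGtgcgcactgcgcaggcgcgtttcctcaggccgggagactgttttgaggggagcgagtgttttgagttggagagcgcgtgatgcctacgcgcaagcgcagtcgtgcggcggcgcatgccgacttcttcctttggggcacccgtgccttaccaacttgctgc
Fanca had 2 CCAAT boxes, starting 50 and 23 bases before the start site, Atm had 1 on the reverse strand 165 bases before it, and Rad51c and Rad52 had none. E2F-type motifs were found at the second Rad51c start site, where GGCGGGAA and GCGGGAAA, the reverse complements of TTCCCGCC and TTTCCCGC, began 6 and 5 bases before the start and ran past it, and in none of the other windows shown. Over windows of 300 bases, which run to 50 bases past the start, at the first start site listed for each gene, a CCAAT box was found in 19 of 31 members (61.3%) and in 38.8% of 16155 genes. An E2F-type motif was found in 6 of 31 (19.4%; Bard1, Brca2, Rad51ap1, Fancb, Fancg and Fancm) and in 4.44% of all genes, and TTTGAA in 2 of 31 (6.45%) and in 15.2%. Among the 21 members with a window that were called higher in MNCs than in ECs, 4 had an E2F-type motif and 13 a CCAAT box, and among the 10 others the numbers were 2 and 6. Counting every start site listed (2 members had more than 1), the members with an E2F-type motif were 7 of 31 (22.6%, with Rad51c), against 5.0% of all genes, and 5 of the 21. No motif share was tested, and E2F-type motifs overlap one another.

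Total counts ranged from 6377013 to 33880743 per library. Sorted populations were checked with marker genes. The 10 endothelial markers, such as Cdh5 and Emcn, summed to 2324–3383 RPKM in ECs and at most 35.6 RPKM elsewhere. The 10 stromal markers summed to 30176–35363 RPKM in MSCs and 3490–6189 RPKM in ECs. Most of the EC sum was Ly6a, with group means of 5229 (Flt3+/+) and 4288 RPKM (Flt3 ITD/ITD) in ECs. In MSCs Ly6a was lower, at 2916 and 2597 RPKM. Dcn, the next highest stromal marker in ECs, was at 11.0 and 12.0 RPKM there and at 23351 and 24488 in MSCs. The 10 leukocyte markers summed to 6843–10418 RPKM in MNCs, 14.2–602 RPKM in ECs and 0.80–343 RPKM in MSCs. Of the stromal libraries, 4 stood apart in blood cell transcripts. By mean log2 CPM of the leukocyte markers, Flt3 ITD/ITD EC library 2 was at 4.20, Flt3 ITD/ITD MSC library 5 at 4.38 and Flt3+/+ MSC library 5 at 3.32, whereas the other EC and MSC libraries were at -0.07 or lower. The fourth, Flt3+/+ EC library 1, was at 3.32 for erythroid markers, whereas the other EC and MSC libraries were at -0.15 or lower. Results that rest on these libraries are given with and without them, and their part in other results was not tested. Libraries also differed in sex-linked transcripts. Xist, expressed from the inactive X chromosome of females, was at 6.22–16.86 RPKM in 3 EC libraries (Flt3+/+ 2 and 3, Flt3 ITD/ITD 3) and 3 MSC libraries (Flt3+/+ 1 and 4, Flt3 ITD/ITD 4), with 4 Y-linked genes summing to 0.43–2.98 RPKM. In the other 22 libraries, all MNCs among them, Xist was at 0.08–0.25 RPKM and the Y-linked genes at 54.9 or higher. The same 6 libraries had the lowest scores of the stromal libraries for genes induced by dissociation (6.67–7.75 mean log2 CPM, the others 8.22–9.04), so counts below are also given without them.

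**Figure D1:**
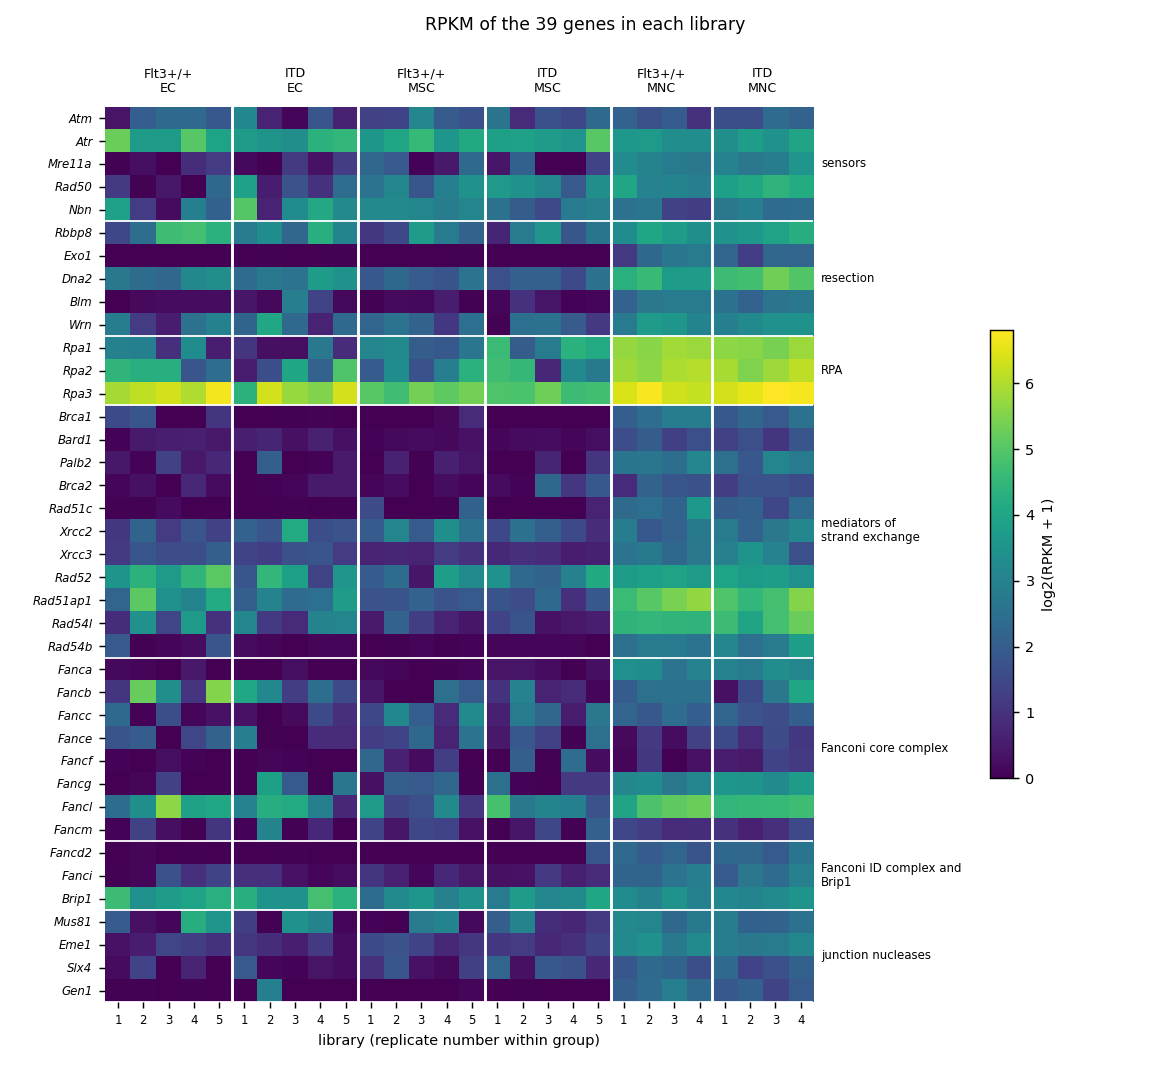
Level of the 39 members (rows, grouped by role) in each of the 28 libraries (columns, grouped by population and genotype), as log2(RPKM + 1) in color. In the 8 MNC libraries 37–39 members reached 1 CPM, against 23–28 in ECs and 22–30 in MSCs.

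The members were at higher levels in MNCs than in either stromal population. In each library the mean log2 CPM of the 39 members was taken as a score. In Flt3+/+ ECs it was 1.20 ± 0.30 (SD, n = 5) and in Flt3 ITD/ITD ECs 0.90 ± 0.14 (n = 5). For the same genotypes, MSCs scored 1.25 ± 0.33 and 1.29 ± 0.41 (n = 5 each) and MNCs 4.25 ± 0.21 and 4.14 ± 0.19 (n = 4 each). The lowest MNC library (3.92) lay above the highest EC (1.59) and MSC library (1.80), while ECs and MSCs overlapped. The score is a description with no test, and it weighs members with few reads heavily: on log2(RPKM + 1) the MNC–EC difference was 1.37, not 3.15. In bulk libraries, fewer cells with a transcript and less RNA per cell cannot be told apart.

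**Figure D2:**
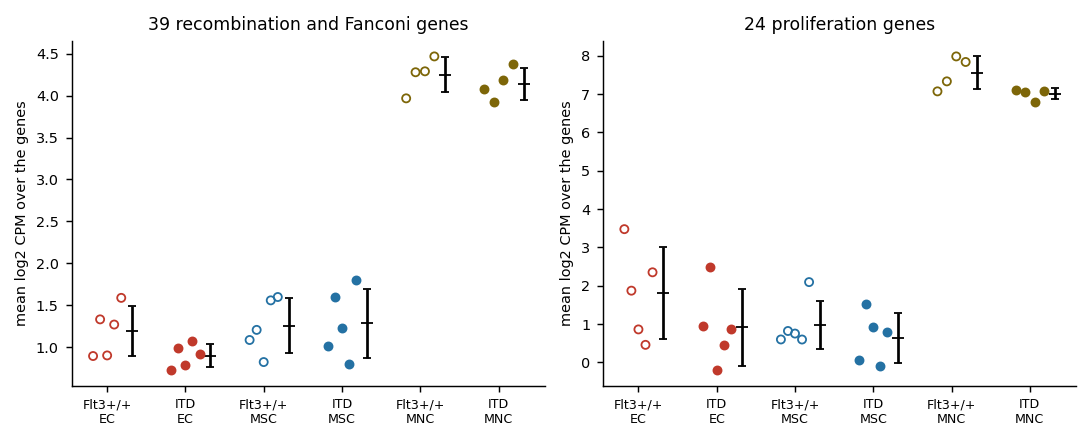
Mean log2 CPM of the 39 members (left) and of 24 proliferation genes (right) in each library by population and genotype (open, Flt3+/+; filled, Flt3 ITD/ITD), with the group mean and SD as bars. The 8 MNC libraries lie between 3.92 and 4.47 for the members, above all stromal libraries, and the genotypes overlap in each population.

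By the quasi-likelihood test of edgeR, a gene was called when its adjusted p-value over all genes tested was below 0.1 and its log2 ratio of mean RPKM was at least 1 in size. Of the 39 members, 25 were higher in MNCs than in ECs, whereas 22.0% of all 16897 genes tested were. None was lower, against 23.1% of all genes. DESeq2 called none lower either, and Brip1 alone had an unadjusted p-value below 0.05 in that direction. Against MSCs, 24 members were higher in MNCs (22.0% of all genes) and none was lower (22.2%), again with none by DESeq2 and Brip1 alone below 0.05 unadjusted. The median log2 fold change of the members was 2.45 against ECs and 2.28 against MSCs, and that of all genes was 0.00 and 0.02, respectively. For 14 members every MNC library was above every EC library, as was the case for 9.39% of all genes, and for 20 members above every MSC library, as for 12.2%. Both stromal comparisons share the MNC libraries. Of the 25 members called against ECs, 25 were called whichever library was left out and without the 4 libraries with blood cell transcripts, as were 21 and 23, respectively, of the 24 called against MSCs. Without the 6 libraries with Xist, 25 and 21 were. In a single genotype alone, 15 of the 25 and 14 of the 24 were called in both. Some members had too few counts to pass the filter within the population where they were low. These were 10 of the 25 within ECs (Exo1, Brca1, Brca2, Rad51c, Rad54b, Fanca, Fancf, Fancg, Fancd2 and Gen1). Within MSCs they were 8 of the 24, the same members without Fancf and Fancg. The model of all libraries tested them, and it held the MNCs, where they were high. Among members that passed the filter in both populations compared, 15 of 29 were called higher against ECs (14.6% of 11237 such genes) and 16 of 31 against MSCs (16.6% of 11864). Of the members with every MNC library above every EC library, Exo1, Brca1, Brca2, Rad51c, Rad54b, Fanca and Fancd2 did not pass it within ECs. Of those above every MSC library, Exo1, Brca1, Rad54b, Fanca and Gen1 did not pass it within MSCs. The shares of separated genes were not taken over genes past both filters.

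**Figure D3:**
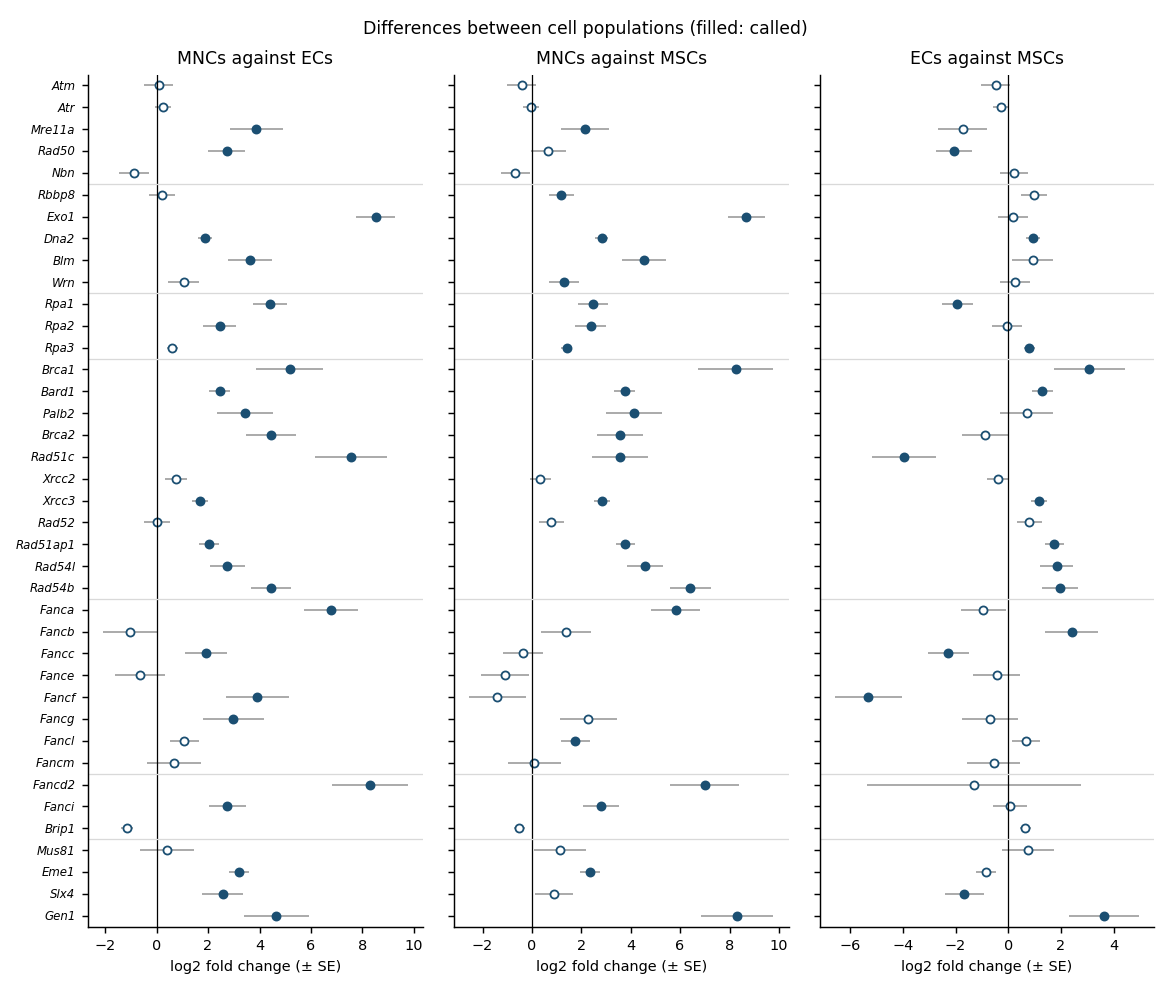
Log2 fold change (quasi-likelihood test, with its standard error) of each member between MNCs and ECs, MNCs and MSCs, and ECs and MSCs, ordered by role. Filled points are called; 25 and 24 members are higher in MNCs and none is lower.

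Called members are given here by role, beside 22.0% of all genes tested that were called higher in MNCs in each comparison. Of the 11 mediators of strand exchange, 9 were higher in MNCs than in ECs and 9 than in MSCs. All 5 resection genes were higher in MNCs than in MSCs and 3 than in ECs. Of the 3 RPA subunits, 3 were higher than in MSCs and 2 than in ECs. Of the 5 sensors, 2 were higher than in ECs and 1 than in MSCs, and of the 8 core complex genes 4 and 2. Among FANCD2, FANCI and Brip1, 2 of 3 were higher in each comparison, and of the 4 junction nucleases 3 and 2. These counts include the members that did not pass the filter within ECs or within MSCs. The calls of Wrn, Rbbp8 and Mre11a against MSCs depended on the libraries used, as given below. Whether roles differed from each other was not tested.

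The break-sensing kinases were not called between populations. Atm, which signals double-strand breaks, was at 0.29, 3.08, 4.14, 4.03 and 2.58 RPKM in Flt3+/+ ECs and at 7.99, 0.56, 0.08, 2.51 and 0.54 in Flt3 ITD/ITD ECs. In Flt3+/+ MSCs it was at 1.48, 1.57, 7.79, 2.84 and 2.27 RPKM and in Flt3 ITD/ITD MSCs at 5.14, 0.78, 2.30, 1.80 and 4.11. In Flt3+/+ MNCs it was at 3.41, 2.23, 2.92 and 0.97 RPKM and in Flt3 ITD/ITD MNCs at 2.12, 2.13, 4.22 and 3.38. The ranges of the 3 populations overlapped almost entirely (MNC–EC log2 fold change 0.07 ± 0.58 SE, adjusted p = 0.939; MNC–MSC -0.41 ± 0.58, adjusted p = 0.604). Atr, the kinase of stalled forks, was the second most abundant member in ECs and MSCs (18.2 ± 9.70 and 15.9 ± 6.68 RPKM, SD, n = 10) and stood at 11.0 ± 2.03 RPKM in MNCs (n = 8). Of the 3 subunits of the MRN complex, which binds broken ends, Mre11a and Rad50 were called higher in MNCs than in ECs and Nbn was not. Mre11a, the nuclease, was called higher in MNCs than in ECs (7.14 ± 1.75 against 0.53 ± 0.58 RPKM) and than in MSCs (1.61 ± 1.68), while Nbn stood at 4.21 ± 1.86, 9.04 ± 9.58 and 6.07 ± 2.21 RPKM in MNCs, ECs and MSCs and was not called. The Mre11a call against MSCs was made in 19 of 28 fits that left out 1 library. It was not made in a single genotype alone or without the 6 libraries with Xist. Rad50, which tethers the ends, ranged from 0 to 13.95 RPKM in ECs (median 1.10), from 2.50 to 11.84 in MSCs (median 7.72) and from 6.46 to 20.27 in MNCs (median 14.2), and was lower in ECs than in MNCs (MNC–EC log2 fold change 2.73 ± 0.73, adjusted p = 0.0033) and than in MSCs (-2.05 ± 0.69, adjusted p = 0.0229).

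Exo1 and Fancd2 gave the largest MNC–EC differences. Neither passed the filter within ECs or within MSCs, so the sizes of both differences rest on EC counts near 0. Exo1, a nuclease of long-range resection (chr1:175880768-175911396, GRCm38), was at 0–0.03 RPKM in each EC library and at 0–0.02 in each MSC library, which is at most 4 counts per library. In Flt3+/+ MNCs it was at 1.21, 3.93, 5.40 and 5.88 RPKM and in Flt3 ITD/ITD MNCs at 3.69, 1.34, 3.73 and 3.62. Every MNC library was thus above every stromal library (log2 fold change against ECs 8.51 ± 0.75 and against MSCs 8.69 ± 0.75, both of which depend on the prior count because stromal counts were near 0). Fancd2 (chr6:113531640-113597020), the substrate of the core complex, was at 0–0.06 RPKM in the 10 EC libraries. In the Flt3+/+ MNCs it was at 4.03, 2.96, 3.69 and 2.38 RPKM and in the Flt3 ITD/ITD MNCs at 3.82, 3.74, 2.81 and 5.20 (8.29 ± 1.46 against ECs, adjusted p = 8.6e-05). In MSCs it was at 0.01 RPKM or lower in 9 libraries and at 2.52 RPKM, or 130 counts, in Flt3 ITD/ITD library 5, one of those with blood cell transcripts. Its partner Fanci followed with 4.73 ± 1.44 RPKM in MNCs, against 0.72 ± 0.76 in ECs and 0.57 ± 0.36 in MSCs, and was called in both comparisons. At a few counts per library, absence of Exo1 or Fancd2 RNA from the stroma cannot be distinguished from levels below the depth. An exon of Fancd2os overlaps Fancd2 on the other strand, and reads there cannot be assigned to either. Fancd2os was at 0.055, 0.245 and 0.994 RPKM in ECs, MSCs and MNCs.

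Of the other resection genes, Dna2 was the most abundant in MNCs. Dna2 (chr10:62946983-62974188), a nuclease and helicase, ranged from 12.12 to 39 RPKM in MNCs (median 23.7), from 3.76 to 12.29 in ECs (median 5.70) and from 1.84 to 5.07 in MSCs (median 3.06). MNC and MSC libraries did not overlap, and the highest EC library was just above the lowest MNC library (1.88 ± 0.27 against ECs and 2.82 ± 0.28 against MSCs). The helicase Blm, which dissolves joined molecules and assists resection, was at 3.41–6.14 RPKM in MNCs (median 5.28), 0–6.45 in ECs (median 0.17) and 0.02–0.97 in MSCs (median 0.10), and was called in both (3.62 ± 0.85 and 4.54 ± 0.88). Only 1 EC library, Flt3 ITD/ITD library 3, reached the range of the MNCs. Wrn and Rbbp8 were higher in MNCs than in MSCs (1.30 ± 0.60 and 1.19 ± 0.51, adjusted p = 0.0829 and 0.0599) but were not called against ECs. The MSC calls were made in 18 (Wrn) and 27 (Rbbp8) of 28 fits that left out 1 library. Neither was made in a single genotype alone or without the 6 libraries with Xist. The Wrn call was also lost without the 4 libraries with blood cell transcripts.

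RPA, which also serves DNA replication, held the largest share of member RNA. Its subunits made up 41.1% ± 1.58 (SD, n = 8 libraries) of the summed member RPKM in MNCs, 33.7% ± 9.51 in ECs and 34.7% ± 5.50 in MSCs (n = 10 each), and the sum itself was 485 ± 48.4, 233 ± 43.5 and 149 ± 23.2 RPKM. Rpa3 was the most abundant member in each population, at 91.0 ± 14.1 RPKM in MNCs, 65.1 ± 23.0 in ECs and 31.9 ± 6.18 in MSCs. Rpa1 (chr11:75300259-75348454), the subunit that binds DNA, ranged from 41.78 to 56.61 RPKM in MNCs (median 50.6), from 0.19 to 8.84 in ECs (median 0.97) and from 2.66 to 23.73 in MSCs (median 6.80). It was 4.41 ± 0.67 higher in MNCs than in ECs on the log2 scale, whereas Rpa3 differed by 0.61 ± 0.22 and was not called. The subunits, which act as 1 complex, thus differed unequally between populations. Rpa2 was called in both comparisons, at 57.3 ± 8.16, 11.5 ± 10.1 and 10.2 ± 8.79 RPKM in MNCs, ECs and MSCs.

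The mediators prepare the single strands and guide the strand exchange. Brca1 (chr11:101488761-101551955), the ubiquitin ligase that promotes resection and recruits Palb2 and BRCA2, was at 1.90, 2.52, 0, 0 and 1.02 RPKM in Flt3+/+ ECs and at 0–0.05 in the 5 Flt3 ITD/ITD ECs. In MSCs it was at 0 in 8 libraries, at 0.10 in Flt3+/+ library 4 and at 0.74 in Flt3+/+ library 5. In MNCs it ranged from 2.65 to 6.33 RPKM, above every stromal library (5.16 ± 1.30 against ECs, 8.25 ± 1.53 against MSCs, adjusted p = 0.00258 and 0.000134). Bard1, its obligate partner, stood at 1.99 ± 0.62 RPKM in MNCs, 0.39 ± 0.18 in ECs and 0.14 ± 0.07 in MSCs and was called in all 3 comparisons. Palb2, which bridges BRCA1 and BRCA2, stood at 5.50 ± 1.71, 0.66 ± 0.99 and 0.31 ± 0.36 RPKM in MNCs, ECs and MSCs and was called higher in MNCs in both comparisons. Its highest EC value, 3.14 RPKM, was that of Flt3 ITD/ITD library 2. Brca2 (chr5:150522297-150570147), a large protein that binds single strands with Palb2, was at 0.78, 3.47, 2.52 and 2.20 RPKM in Flt3+/+ MNCs and at 1.36, 2.34, 2.37 and 1.92 in Flt3 ITD/ITD MNCs, and at most 0.69 in ECs (4.46 ± 0.97, adjusted p = 0.00054). The MNC libraries did not overlap with ECs but overlapped with Flt3 ITD/ITD MSCs.

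Rad51c (chr11:87376645-87404954), a mediator that also acts late in recombination, was nearly silent in ECs, where it ranged from 0 to 0.14 RPKM. With at most 6 counts in an EC library, it did not pass the filter within ECs, nor did it within MSCs. In Flt3+/+ MSCs it was at 1.99, 0, 0.01, 0.03 and 3.34 RPKM and in Flt3 ITD/ITD MSCs at 0.01, 0, 0, 0 and 0.61. In Flt3+/+ MNCs it was at 4.12, 4.64, 3.50 and 11.36 RPKM and in Flt3 ITD/ITD MNCs at 3.03, 3.31, 1.72 and 4.19. Every MNC library was above every EC library, and MNCs and MSCs overlapped through Flt3+/+ MSC libraries 1 and 5 (7.55 ± 1.40 and 3.57 ± 1.15, adjusted p = 9.2e-05 and 0.0131). The other mediators of this family differed among themselves: Xrcc3 was called higher in MNCs in both comparisons (1.68 ± 0.32 and 2.84 ± 0.33), while Xrcc2 differed by 0.75 ± 0.44 and 0.35 ± 0.44 and was not called. Rad54l and Rad54b, which are translocases that move along DNA, and Rad51ap1, which helps strands to pair, were called in both. Rad54l stood at 23.2 ± 6.45 RPKM in MNCs, 4.94 ± 4.24 in ECs and 1.12 ± 1.07 in MSCs, Rad54b at 6.62 ± 2.69, 0.58 ± 1.07 and 0.05 ± 0.04, and Rad51ap1 at 34.0 ± 10.9 RPKM in MNCs, the most abundant mediator. Rad52, which anneals single strands, had the smallest MNC–EC difference of all members (-0.00 ± 0.51), at 12.6 ± 1.54 RPKM in MNCs and 14.6 ± 9.30 in ECs.

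The core complex genes differed among themselves. Fanca, the large scaffold subunit, stood at 7.57 ± 1.56 RPKM in MNCs, 0.07 ± 0.12 in ECs and 0.13 ± 0.11 in MSCs, and no library of the MNCs overlapped with the others (6.77 ± 1.04 and 5.82 ± 1.0). Fancl, the ubiquitin ligase of the complex, was higher in MNCs than in MSCs (1.76 ± 0.58) but not called against ECs (1.08 ± 0.57, adjusted p = 0.126). Fancg was called only against ECs (2.98 ± 1.19). Its EC libraries had a median of 0.06 RPKM, with 13.49 RPKM in Flt3 ITD/ITD library 2, one of those with blood cell transcripts. The highest MNC library was at 12.59 RPKM. Fancm, the translocase that anchors the complex, stood at 1.13 ± 0.48, 1.09 ± 2.23 and 1.09 ± 1.06 RPKM in MNCs, ECs and MSCs, and Fance at 1.09 ± 0.69, 1.85 ± 2.06 and 2.16 ± 1.80. Neither was called. Brip1, a helicase that binds BRCA1, was the only member with an adjusted p-value below 0.1 in the opposite direction: it was at 16.5 ± 6.07 RPKM in ECs, 9.0 ± 3.20 in MSCs and 8.42 ± 1.37 in MNCs (MNC–EC -1.15 ± 0.24, adjusted p = 0.000294). Its log2 ratio of mean RPKM, -0.97, missed the limit of 1.

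Junction nucleases included 1 gene with a single high stromal library. Gen1 (chr12:11238928-11266029), which cuts Holliday junctions, was at 0.03 RPKM or lower in Flt3+/+ ECs, and at 0, 6.70, 0, 0 and 0 in Flt3 ITD/ITD ECs. It was at 0.06 or lower in every MSC library, and in MNCs at 3.20, 4.19, 6.57 and 4.09 in Flt3+/+ mice and at 2.59, 3.34, 1.63 and 2.78 in Flt3 ITD/ITD mice. Only the EC library with leukocyte transcripts thus reached the MNC levels, and it lay above the highest MNC library (4.65 ± 1.26 against ECs, 8.30 ± 1.47 against MSCs). Its leukocyte markers summed to 602 RPKM, against 6843–10418 in MNCs. The part of blood cell transcripts in its Gen1 value was not tested. Eme1, the partner of Mus81, ranged from 5.64 to 9.95 RPKM in MNCs (median 7.05), from 0.17 to 1.66 in ECs (median 0.94) and from 0.69 to 2.36 in MSCs (median 1.22). MNCs did not overlap with either (3.20 ± 0.40 and 2.35 ± 0.39). Mus81 itself was not called, at 5.43 ± 1.88, 5.09 ± 6.18 and 2.66 ± 3.06 RPKM in MNCs, ECs and MSCs, and Slx4, the scaffold of these nucleases, was called against ECs only (2.58 ± 0.80).

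**Figure D4:**
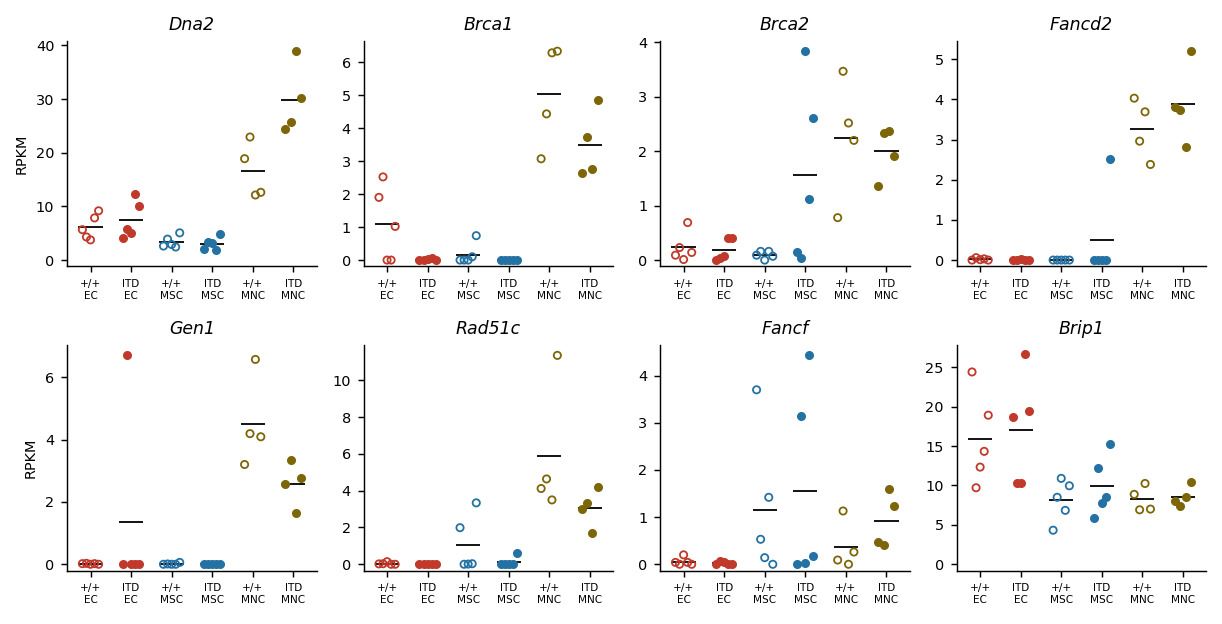
RPKM of 8 members in each library by population and genotype: Dna2, Brca1, Brca2, Fancd2, Gen1, Rad51c, Fancf and Brip1, each on its own axis (points, libraries; open, Flt3+/+; filled, Flt3 ITD/ITD; lines, group means). Single high stromal libraries are visible for Gen1 (6.70 RPKM in ECs) and Fancd2 (2.52 RPKM in MSCs), and Brip1 is highest in ECs.

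Between ECs and MSCs, 10 members were called higher in ECs (16.3% of all genes tested) and 6 lower (16.6%), with a median log2 fold change of 0.17 against -0.01 over all genes, and for no member did the libraries of both populations separate (4.75% of all genes were higher in every EC library and 3.61% lower). Of the 11 mediators, 6 were called higher in ECs (Brca1, Bard1, Xrcc3, Rad51ap1, Rad54l and Rad54b) and 1, Rad51c, lower. Brca1, Rad54b, Rad51c and Gen1 did not pass the filter within ECs or within MSCs, and were tested here in the model that also held MNCs. Of these, Rad54b alone was also called with ECs and MSCs fitted on their own. Fancf passed the filter within MSCs, where it was higher, but not within ECs. Among the 29 members that passed it in both populations, 7 were called higher in ECs and 4 lower (14.9% and 9.09% of 11549 such genes). Also higher in ECs were Dna2, Rpa3, Fancb and Gen1, and also lower were Rad50, Rpa1, Fancc, Fancf and Slx4. Whichever library was left out, 5 of the 10 and 4 of the 6 stayed called, and without the 4 libraries with blood cell transcripts 8 and 4 did. Without the 6 libraries with Xist 4 of the 10 (Dna2, Rad51ap1, Rad54b and Xrcc3) and all 6 did, and with ECs and MSCs fitted on their own 7 and 4 did, Brca1 and Rad51c not among them. Rad51ap1 was the clearest, at 10.2 ± 9.20 RPKM in ECs and 2.53 ± 0.81 in MSCs (1.75 ± 0.36, adjusted p = 0.000461), and was called in each genotype alone, as was Fancf.

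Fancf (chr7:51860577-51862267), the adaptor of the core complex, had the largest called difference between ECs and MSCs (-5.32 ± 1.28, adjusted p = 0.0021). With at most 5 counts in an EC library, Fancf did not pass the filter within ECs, so the size of this difference rests on counts near 0. It was at 0.04, 0, 0.20, 0.04 and 0 RPKM in Flt3+/+ ECs and at 0, 0.06, 0.04, 0 and 0 in Flt3 ITD/ITD ECs. In Flt3+/+ MSCs it was at 3.70, 0.53, 0.14, 1.42 and 0 RPKM and in Flt3 ITD/ITD MSCs at 0, 3.14, 0.02, 4.43 and 0.17. High values were thus found in some MSC libraries of both genotypes, while others lay within the EC range, and MNCs were at 0–1.59 RPKM. The kit did not mark strand, and an exon of Gas2 overlaps Fancf on the other strand, so reads there cannot be assigned to either. Gas2 was at 3.94, 5.33 and 2.40 RPKM in ECs, MSCs and MNCs and differed by -0.61 between ECs and MSCs. Fancc, another core subunit, was at 3.98, 0.05, 2.10, 0.06 and 0.26 RPKM in Flt3+/+ ECs and at 0.26, 0.01, 0.12, 1.90 and 0.91 in Flt3 ITD/ITD ECs. In Flt3+/+ MSCs it was at 1.77, 8.02, 3.06, 0.76 and 8.45 RPKM and in Flt3 ITD/ITD MSCs at 0.52, 5.79, 3.76, 0.47 and 5.52, so the populations overlapped (-2.28 ± 0.79, adjusted p = 0.0277). In MNCs it ranged from 2.06 to 4.36 RPKM. It overlaps 2010111I01Rik, which was at 79.4, 93.1 and 11.5 RPKM. In all, 13 members share exon sequence with another gene. Some of these genes were also higher in MNCs than in ECs: Fancd2os by 5.27 on the log2 scale, Fsbp (overlapping Rad54b) by 3.04, Vrk2 (Fancl) by 2.11, Ankrd49 (Mre11a) by 2.08 and Zfp276 (Fanca) by 1.45. Others were lower: 2010111I01Rik (-2.56), Klc1 (Xrcc3, -2.50), Efemp2 (Mus81, -2.49), Mrpl27 (Eme1, -0.74) and Gas2 (-0.60). The part of such reads in the member values was not tested.

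Several other called EC–MSC differences were lost when a library was left out. For Gen1 the difference was 3.65 ± 1.33 (adjusted p = 0.0362), and without Flt3 ITD/ITD EC library 2 it was -1.10 (adjusted p = 0.264). Rad51c was at -3.98 ± 1.21 (adjusted p = 0.0128), and at -1.70 and no longer called without Flt3 ITD/ITD MSC library 5. Fancb, an X-linked core subunit, was at 1.03, 36.28, 9.36, 1.02 and 45.60 RPKM in Flt3+/+ ECs, and at 15.80, 8.07, 1.36, 4.54 and 1.81 in Flt3 ITD/ITD ECs. In Flt3+/+ MSCs it was at 0.33, 0, 0, 4.75 and 2.83 RPKM and in Flt3 ITD/ITD MSCs at 1.0, 7.16, 0.60, 0.78 and 0.07. EC libraries differed widely among themselves and overlapped with MSCs (2.41 ± 1.01, adjusted p = 0.0693), and the call was lost without any one of 7 libraries. The Brca1 call (3.08 ± 1.34, adjusted p = 0.084) was lost without any one of 8, and the Slx4 call (-1.67 ± 0.75, adjusted p = 0.0903) was made in 13 of 28 fits that left out 1 library.

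Other genes of these pathways, from a list of 58 of which 55 were in the table, were called as follows. Of the 55, 16 (29.1%, beside 22.0% of all genes) were called higher in MNCs than in ECs and 3 lower (Rmi2, Chek2 and Ercc1, named after their values were seen), and 18 (32.7%, beside 22.0%) were higher than in MSCs and 0 lower, with 3 lower at an unadjusted p-value below 0.05. Ube2t, the ubiquitin-conjugating enzyme that works with Fancl, was at 29.6, 0.01 and 2.85 RPKM in MNCs, ECs and MSCs. Of 11 end joining genes, 4 were higher in MNCs in each comparison, with Xrcc5 lower than in MSCs, and of 7 mismatch repair genes 2 and 3 were higher. Of 24 proliferation genes, such as Mki67, 23 and 24 were higher in MNCs. The mean log2 CPM of the proliferation genes was 7.28 ± 0.41 in MNCs, 1.36 ± 1.14 in ECs and 0.81 ± 0.63 in MSCs. Like the members, these genes were thus higher in MNCs than in both stromal populations, and their part in the member differences was not tested. All 10 genes of a list induced by dissociation were lower in MNCs in both comparisons.

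Flt3-ITD was then compared with wild type within each population. Enough counts for a test were found for 39 members in MNCs, 31 in MSCs and 29 in ECs. Members varied most in ECs, with a median coefficient of variation of 108%, 79.5% and 31.2% in ECs, MSCs and MNCs. No member was called between genotypes in any population by the quasi-likelihood test, against 0.00810%, 0.0295% and 0.0144% of all genes in ECs, MSCs and MNCs. At an unadjusted p-value below 0.05 in either direction there were 1, 1 and 6 members. edgeR's exact test likewise called none (0.130%, 0.140% and 1.05% of all genes), with 1, 1 and 5 below 0.05. DESeq2 called 3 in ECs (Blm, Brca1 and Rad54b), 1 in MSCs (Brca2) and 0 in MNCs, with 3, 4 and 6 below 0.05, and it called 2.58%, 1.29% and 2.23% of all genes. The smallest adjusted p-values of a member were 0.927, 0.999 and 0.397. The score differed by -0.30, 0.03 and -0.11 between genotypes in ECs, MSCs and MNCs, beside mean SDs within groups of 0.22, 0.37 and 0.20.

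**Figure D5:**
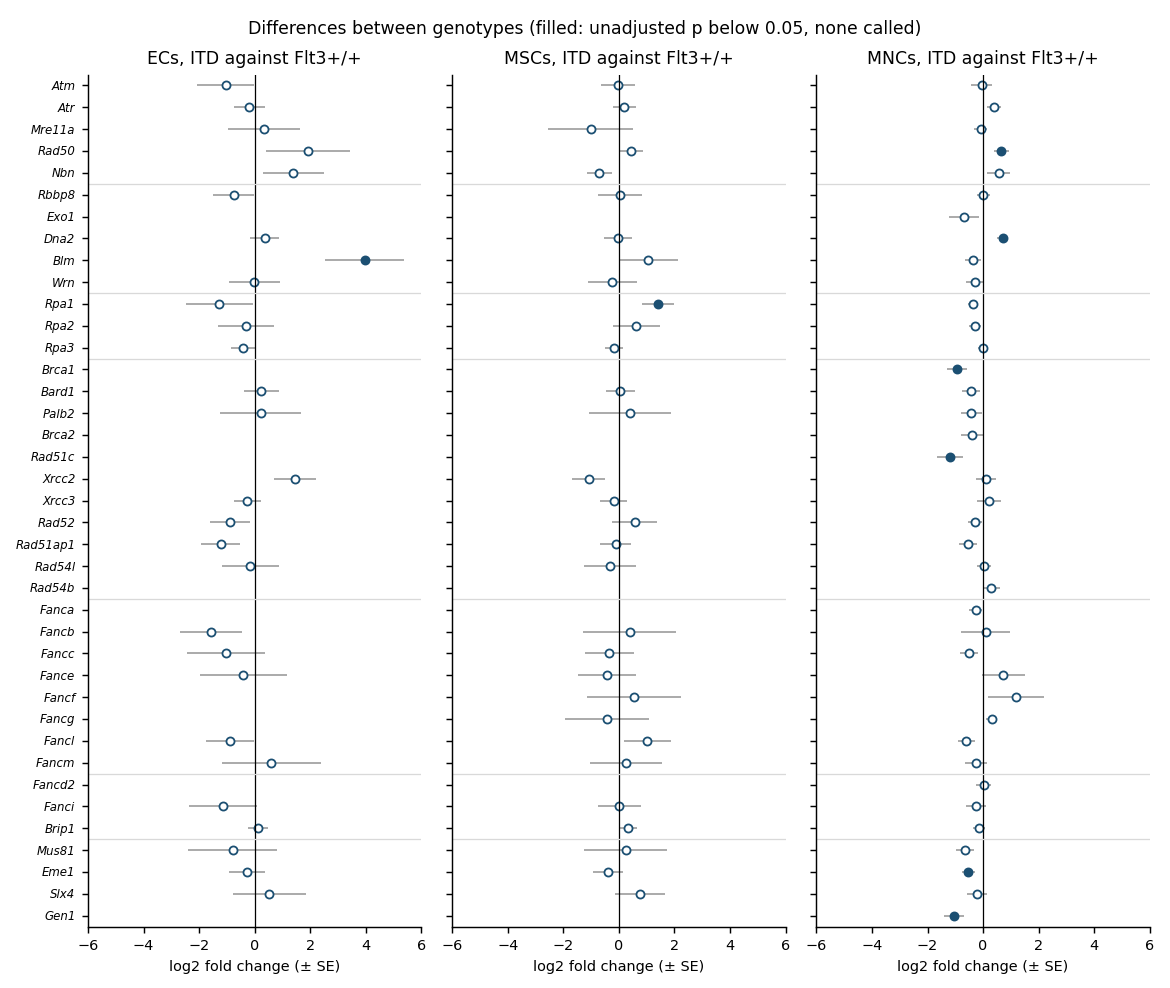
Log2 fold change (Flt3 ITD/ITD relative to Flt3+/+, quasi-likelihood test, with its standard error) of each member tested in ECs, MSCs and MNCs, ordered by role. Filled points have an unadjusted p-value below 0.05 (1, 1 and 6 members), and no member is called in any of the 3 panels.

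In MNCs, where replicates were closest, 6 members had an unadjusted p-value below 0.05: 2 at higher levels in Flt3 ITD/ITD mice (5.39% of all genes) and 4 at lower levels (5.0%). None passed the adjusted threshold, and the values that follow are given as descriptions. Dna2 was at 18.89, 22.92, 12.12 and 12.62 RPKM in Flt3+/+ MNCs and at 24.41, 25.65, 39 and 30.18 in Flt3 ITD/ITD MNCs. It was the only member of 39 whose libraries did not overlap between genotypes, as was the case for 6.71% of all genes (0.71 ± 0.20, p = 0.00526, adjusted p = 0.397; exact permutation p = 0.0286, the smallest that 4 against 4 can give). Rad50 was at 15.18, 7.03, 7.39 and 6.46 RPKM in Flt3+/+ MNCs and at 13.31, 15.71, 20.27 and 17.04 in Flt3 ITD/ITD MNCs. Here 1 Flt3+/+ library lay within the other group (0.65 ± 0.27, adjusted p = 0.461; exact permutation p = 0.0571).

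The 4 members at lower levels in Flt3 ITD/ITD MNCs were Gen1, Brca1, Rad51c and Eme1. The Gen1 and Rad51c values given above overlapped between genotypes, each through 1 Flt3 ITD/ITD library, with log2 fold changes of -1.05 ± 0.37 (adjusted p = 0.419; exact permutation p = 0.0571) and -1.20 ± 0.46 (adjusted p = 0.433; exact permutation p = 0.0857). With 1 library left out the Rad51c value ran from -1.38 to -0.58. Brca1 was at 3.07, 4.43, 6.28 and 6.33 RPKM in Flt3+/+ MNCs and at 2.65, 3.73, 2.76 and 4.84 in Flt3 ITD/ITD MNCs (-0.95 ± 0.36, adjusted p = 0.429; exact permutation p = 0.171). Eme1 was at 8.37, 9.95, 5.71 and 8.53 RPKM and at 6.24, 5.64, 6.08 and 7.85, respectively (-0.53 ± 0.22, adjusted p = 0.456; exact permutation p = 0.143). Both overlapped. Of all 39 members, 26 had a negative and 13 a positive log2 fold change, with a median of -0.26 against -0.00 over all genes. Without normalization for composition the median of log2 CPM differences was -0.05 for the members and 0.18 for all genes.

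Other gene lists were examined in MNCs as well. Of 24 proliferation genes, 21 had a negative log2 fold change in Flt3 ITD/ITD MNCs (median -0.59) and 12 an unadjusted p-value below 0.05, and none was called. The 6 erythroid markers (median -2.36) and 6 B cell markers (median -1.09) were all negative. Of the 9 granulocyte markers 4 were positive and 5 negative (median -0.67), with 2 higher and 0 lower at an unadjusted p-value below 0.05. The leukocyte markers were mixed as well, with 5 positive and 5 negative. Summed erythroid markers ranged from 13.5 to 15965 RPKM in Flt3+/+ MNCs and from 267 to 2668 in Flt3 ITD/ITD MNCs. The part of cell composition in the member values was not tested.

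In ECs only Blm had an unadjusted p-value below 0.05 (2.50% of all genes did at higher and 2.49% at lower levels in Flt3 ITD/ITD mice). It was at 0, 0.13, 0.18, 0.18 and 0.16 RPKM in Flt3+/+ ECs and at 0.34, 0.10, 6.45, 1.65 and 0.11 in Flt3 ITD/ITD ECs. Here 3 Flt3 ITD/ITD libraries were above the Flt3+/+ range and 2 within it (3.96 ± 1.42, p = 0.0179, adjusted p = 0.927; exact permutation p = 0.119). In MSCs only Rpa1 did (2.28% and 1.95% of all genes). It was at 7.47, 8.31, 2.99, 2.66 and 5.33 RPKM in Flt3+/+ MSCs and at 23.73, 2.98, 6.12, 19.17 and 16.97 in Flt3 ITD/ITD MSCs. Here 3 Flt3 ITD/ITD libraries were above the Flt3+/+ range and 2 within it (1.41 ± 0.59, p = 0.034, adjusted p = 0.999; exact permutation p = 0.111). Of the 39 exact permutation tests in MSCs, 1 was below 0.05, that of Nbn, which was at 8.2, 8.27, 7.64, 6.43 and 7.62 RPKM in Flt3+/+ MSCs and at 4.86, 3.01, 1.83, 5.98 and 6.83 in Flt3 ITD/ITD MSCs (-0.71 ± 0.44, adjusted p = 0.999; exact permutation p = 0.0159). Of those in ECs 0 and in MNCs 1, that of Dna2, were below 0.05. In ECs Rpa1 was at 6.87, 6.67, 0.88, 8.84 and 0.49 RPKM in Flt3+/+ mice and at 1.06, 0.22, 0.19, 5.57 and 0.83 in Flt3 ITD/ITD mice, without a call. Of the 29 members tested in ECs, 18 had a negative and 11 a positive log2 fold change (median -0.27, all genes -0.01). Of the 31 tested in MSCs, 14 were negative and 17 positive (median 0.04, all genes 0.03). A shift of the members as a set was not tested in any population.

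Whether the genotype difference itself differed between populations was tested in 1 model of all libraries. Between ECs and MSCs, Brca2 alone was called (-7.98 ± 1.89 on the log2 scale, adjusted p = 0.0867), against 0.379% of all genes, and 6 members had an unadjusted p-value below 0.05 (10.6% of all genes). Brca2 was at 0.09, 0.23, 0.01, 0.69 and 0.14 RPKM in Flt3+/+ ECs and at 0, 0.04, 0.08, 0.40 and 0.40 in Flt3 ITD/ITD ECs. It was at 0.09, 0.16, 0, 0.16 and 0.07 in Flt3+/+ MSCs and at 0.15, 0.04, 3.84, 1.13 and 2.62 in Flt3 ITD/ITD MSCs. The difference lay in 3 Flt3 ITD/ITD MSC libraries, the other 2 being within the Flt3+/+ range, and its counts did not pass the filter of the quasi-likelihood test within ECs or MSCs alone. The call was lost when the 2 populations were fitted on their own (adjusted p = 0.416) and in 20 of 28 fits that left out 1 library. Between ECs and MNCs and between MSCs and MNCs no member was called (0.0118% and 0.00592% of all genes). With unadjusted p-values below 0.05 there were 4 (8.23%) and 3 members (5.94%), and DESeq2 called 1 (2.99% of all genes) and 2 (2.15%), beside 5 (5.55%) between ECs and MSCs.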

How the data were processed

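RNA of sorted ECs, MSCs and MNCs had been amplified over 15 cycles with a SMARTer Ultra Low kit, which does not mark strand, and sequenced as single-end reads of 51 bases. The authors deposited estimated counts per gene from RSEM as whole numbers, made from Bowtie alignments to mm10 transcripts without reads that mapped to several places. The authors deposited RPKM for the same genes, printed to 2 decimals. Reads shared with near-identical copies are therefore missing from both.

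Tests were run on counts in R 4.3.3 with edgeR 4.0.16 (quasi-likelihood test, TMM, its filter on low counts), within each population for genotypes and in 1 model of 28 libraries for populations and interactions. Interactions were called at an adjusted p-value below 0.1 alone. Scores used log2 CPM with a prior count of 1. RPKM gave levels, the fold rule and exact two-sided permutation tests. DESeq2 1.42.0, edgeR's exact test, other scalings, filters, prior counts and sample sets were alternatives. Code was checked on simulated counts. The floor was 3 counts, which covers counting error only, since amplified reads are not independent molecules.

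Libraries were grouped by their labels, and replicate numbers were not treated as pairing mice. The members and all gene lists were chosen with earlier results of these data known. Values in every library, or their range where they were near 0, are given for members with an unadjusted p-value below 0.05 between genotypes, for the 3 largest called differences per direction between populations, and for Brca1, Brca2, Fancd2 and Atm. Other members are given by their mean ± SD or by counts. Library pairs of the same group differed by more than counting noise in every case. One gene of the list of other recombination and Fanconi genes is not reported here.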

Additional observations from a re-analysis of the deposited data

Results flagged for a closer look

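Of 96 groups of 4 or 5 libraries examined (15 members and the member score), 21 held a library whose gap to its nearest neighbor was large for the range of the group by Dixon's criterion, which chance alone meets in about 1 group in 20. Beside these libraries stands the Brca2 genotype difference in ECs relative to MSCs (-7.98 on the log2 scale), which differed between populations in the interaction test.

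In MNCs the libraries that stood apart were Flt3+/+ library 1 for Rad50 (15.18 RPKM, the others 6.46–7.39) and Fancb (2.91, the others 4.71–4.78), Flt3 ITD/ITD library 2 for Exo1 (1.34, the others 3.62–3.73) and Flt3+/+ library 4 for Rad51c (11.36, the others 3.50–4.64).

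In stromal libraries with leukocyte transcripts, Gen1 was at 6.70 RPKM in Flt3 ITD/ITD EC library 2 (0 in the others), Fancd2 at 2.52 and Rad51c at 0.61 in Flt3 ITD/ITD MSC library 5 (others at most 0.01), and Brca1 at 0.74, Gen1 at 0.06 and Exo1 at 0.02 in Flt3+/+ MSC library 5 (others at most 0.10, 0.01 and 0.01). In Flt3+/+ EC library 1, with erythroid transcripts, Blm was at 0 (others 0.13–0.18).

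Stromal libraries with low blood markers also stood apart. In ECs these were Flt3 ITD/ITD library 3 for Blm (6.45, the others at most 1.65) and Fancd2 (0.02, the others 0), Flt3 ITD/ITD library 4 for Rpa1 (5.57, the others at most 1.06), Flt3+/+ library 3 for Rad51c (0.14) and Fancf (0.20), and Flt3+/+ library 2 for Exo1 (0, the others 0.01). In MSCs they were Flt3+/+ library 3 for Atm (7.79, the others 1.48–2.84), Flt3+/+ library 4 for Blm (0.44, the others at most 0.12), and Flt3 ITD/ITD library 2 for Fancb (7.16, the others at most 1.0) and Gen1 (0.02, the others 0). For Exo1, Fancd2, Fancf and Gen1 such values of 0.20 RPKM or less are steps of a few counts.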

How the results depend on the processing

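Most results kept their direction and their side of the threshold. The 25 members higher in MNCs than in ECs numbered 25–27 and the 24 higher than in MSCs 21–25 when any library was left out, but 15 against MSCs in Flt3 ITD/ITD libraries alone. Lower in MNCs than ECs, 0 members became 1 (Brip1) with the adjusted p-value alone, without the leukocyte libraries, and over 0–1 with a library left out. Without the 6 libraries with Xist it was 2 (Brip1 and Nbn). Lower than in MSCs, it was 1 with the adjusted p-value alone. Between ECs and MSCs, 10 and 6 became 6 and 3 in Flt3+/+ libraries, and 10 became 5 in Flt3 ITD/ITD libraries and 4 without the 6 libraries with Xist. Gen1 between ECs and MSCs reversed, to -0.17 in Flt3+/+ libraries, -1.18 without both leukocyte libraries, -0.37 without the 4 libraries with blood cell transcripts and -1.10 without Flt3 ITD/ITD EC library 2, and ran up to 4.66 with another library left out.

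DESeq2 called 3 members between genotypes in ECs and 1 in MSCs, and 5, 1 and 2 interactions (ECs–MSCs, ECs–MNCs and MSCs–MNCs) against 1, 0 and 0. The 1 EC–MSC interaction (Brca2) became 0 without a filter, without the leukocyte libraries, without the 4 libraries, without the 6 with Xist and in the model of 2 populations, and 0–2 with a library left out. Leaving out the 4 or the 6 libraries, fitting 2 populations alone, and restricting the score to members tested in every population were chosen after seeing the data. The score difference of 3.15 between MNCs and ECs was 3.46 and 2.65 with prior counts of 0.25 and 5, 1.37 on log2(RPKM + 1) and 2.14 over 29 members tested in every population. That of 2.93 between MNCs and MSCs was 2.49, 1.48 and 1.99 with a prior count of 5, on log2(RPKM + 1) and over those members, and that of -0.22 between ECs and MSCs was 0.11 on log2(RPKM + 1). Except where stated, the cause was not tested.

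The highest correlation between libraries of the same replicate number was 0.066. In libraries that varied this much, low correlations cannot exclude that libraries of the same number came from 1 mouse. Xist was at 16.86 and 12.96 RPKM in Flt3+/+ EC libraries 2 and 3 and at 0.13 and 0.15 in Flt3+/+ MSC libraries 2 and 3. Those libraries thus came from mice of different sex. With the replicate block, 0 members were called between genotypes in each population, 25 and 24 were higher in MNCs, 8 and 5 were called between ECs and MSCs, and no interaction remained (0 members; Brca2 adjusted p = 0.638). Depth limits statements about the 7 members in ECs and 5 in MSCs that had 3 counts or fewer in most libraries.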
